A study of Rattus norvegicus with 9 samples.

Results

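The subject is a set of 10 genes that mark neurons, their axons and their presynaptic terminals, among 32883 genes listed for brain tissue of rats. They are the neurofilament subunit genes Nefl (ENSRNOG00000013658), Nefm (ENSRNOG00000013916) and Nefh (ENSRNOG00000008716), the microtubule-associated protein genes Map2 (ENSRNOG00000011841) and Mapt (ENSRNOG00000005133), the axon growth gene Gap43 (ENSRNOG00000001528), the neuronal enolase gene Eno2 (ENSRNOG00000013141), and the presynaptic genes Snap25 (ENSRNOG00000006037), Syn1 (ENSRNOG00000010365) and Syp (ENSRNOG00000010630). They were chosen by Ensembl ID, and each ID was paired with its symbol in advance, not by the deposited file. All 10 reached 1 FPKM (fragments counted for a gene, scaled to its transcript length and to the size of the library) in every library, so none was lost to the filter on low values.

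RNA was sequenced from 3 groups of 3 libraries. Sham rats had a sham operation. MCAO rats had middle cerebral artery occlusion, which cuts blood flow to much of one hemisphere and serves as a model of ischaemic stroke. PN rats had the same occlusion and received Panax notoginseng, a medicinal plant. The series' title speaks of ischaemia with reperfusion. The sources used here do not give the strain, age or sex of the rats, the brain region and side sampled, the time of sampling, or the dose and route of the plant. Libraries are named by group and sample code, as in PN 3A. No label says whether the libraries of a group came from separate animals. The p-values of group comparisons set a difference only against the spread between libraries within groups. That spread is pooled over the 3 groups and drawn toward that of other genes.

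Neurofilaments are the intermediate filaments of neurons. They are built from a light (Nefl), a medium (Nefm) and a heavy (Nefh) subunit, fill large axons and set their calibre, and the light chain is released into blood and cerebrospinal fluid when axons are damaged. Map2 stabilizes microtubules in dendrites and tau, the product of Mapt, does so in axons. Snap25 is a part of the SNARE complex that fuses synaptic vesicles with the terminal's membrane, synapsin 1 (Syn1) ties vesicles to the cytoskeleton, and synaptophysin (Syp) is a membrane protein of the vesicle itself. These messages are made mainly in neuronal cell bodies. In a piece of tissue, fewer neurons, less RNA per neuron and any RNA from other cells cannot be told apart.

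The promoters of Syn1 and Eno2 are shown because these genes and Snap25 had higher values in every PN library than in any MCAO library. Of the 10 genes, 4 have an entry in the RefSeq promoter table used here (GRCr8): Syn1, Eno2, Map2 and Syp. The stretches are the 250 bases before the annotated start, 5′ to 3′ on the gene's strand, at chrX:3725495-3725744 (plus strand) for Syn1 and at chr4:159267221-159267470 (minus strand) for Eno2. Capitals mark matches on either strand to the 4 motifs searched, the cAMP response element TGACGTCA, the GC box GGGCGG, the TATA box core TATAAA and the E-box CACGTG.
Syn1: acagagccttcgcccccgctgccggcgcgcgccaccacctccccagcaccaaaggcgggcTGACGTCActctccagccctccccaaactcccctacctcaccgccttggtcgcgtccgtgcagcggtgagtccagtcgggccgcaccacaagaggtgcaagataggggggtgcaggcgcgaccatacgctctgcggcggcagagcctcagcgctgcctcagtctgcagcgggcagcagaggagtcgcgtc
Eno2: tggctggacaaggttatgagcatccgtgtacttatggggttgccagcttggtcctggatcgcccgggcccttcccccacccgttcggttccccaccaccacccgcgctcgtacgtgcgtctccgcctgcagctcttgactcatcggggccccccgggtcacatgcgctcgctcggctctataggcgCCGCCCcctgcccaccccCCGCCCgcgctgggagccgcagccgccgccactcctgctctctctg
In Syn1 the single match was the cAMP response element, which begins at position -190 from the start and is present in 1.59% of the 33469 promoters in the table. In Eno2 there were 2 GC boxes, at -64 and -46 on the opposite strand, a motif present in 30.5% of promoters. No matches overlapped. TATAAA (12.9% of promoters) and CACGTG (5.59%) matched in neither. Both stretches held 69.6% G and C, against a median of 51.2% over the table, and the Map2 stretch held 32.0%. A match of letters is a description of the sequence and not evidence that a factor binds.

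The sum of FPKM ran from 387893 to 445693, which does not measure library size, since FPKM are already scaled to it. The steps of low values put the relative depths within 1.33-fold of each other, although FPKM keep no read numbers. That estimate is rough: for each library it rests on 8 to 19 of the 229 to 277 low genes compared with MCAO 3B. One library stood apart: PN 3A was the highest of the 9 in 6 of the 10 genes and the lowest in 1 (Map2). The name of its deposited column begins with other letters than 6A and 7A have. Such a difference is not particular to PN 3A, since the column of sham 9A also begins otherwise than the rest of its group. MCAO 3B was the lowest in 5 genes. Differences that moved by over 1.5 times without PN 3A or without MCAO 3B are given without that library beside the value or in the closing section. In Map2, Mapt and Snap25 the deposited values carry more than 6 decimals, as in 26.4% of the genes tested, and how those digits arose is not described in the sources used here. These 3 genes also had the widest ranges of the set. Across all genes tested, the spread within groups was no wider in such rows (median SD 0.300 on the log2 scale) than in the others (0.325).

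**Figure D1:**
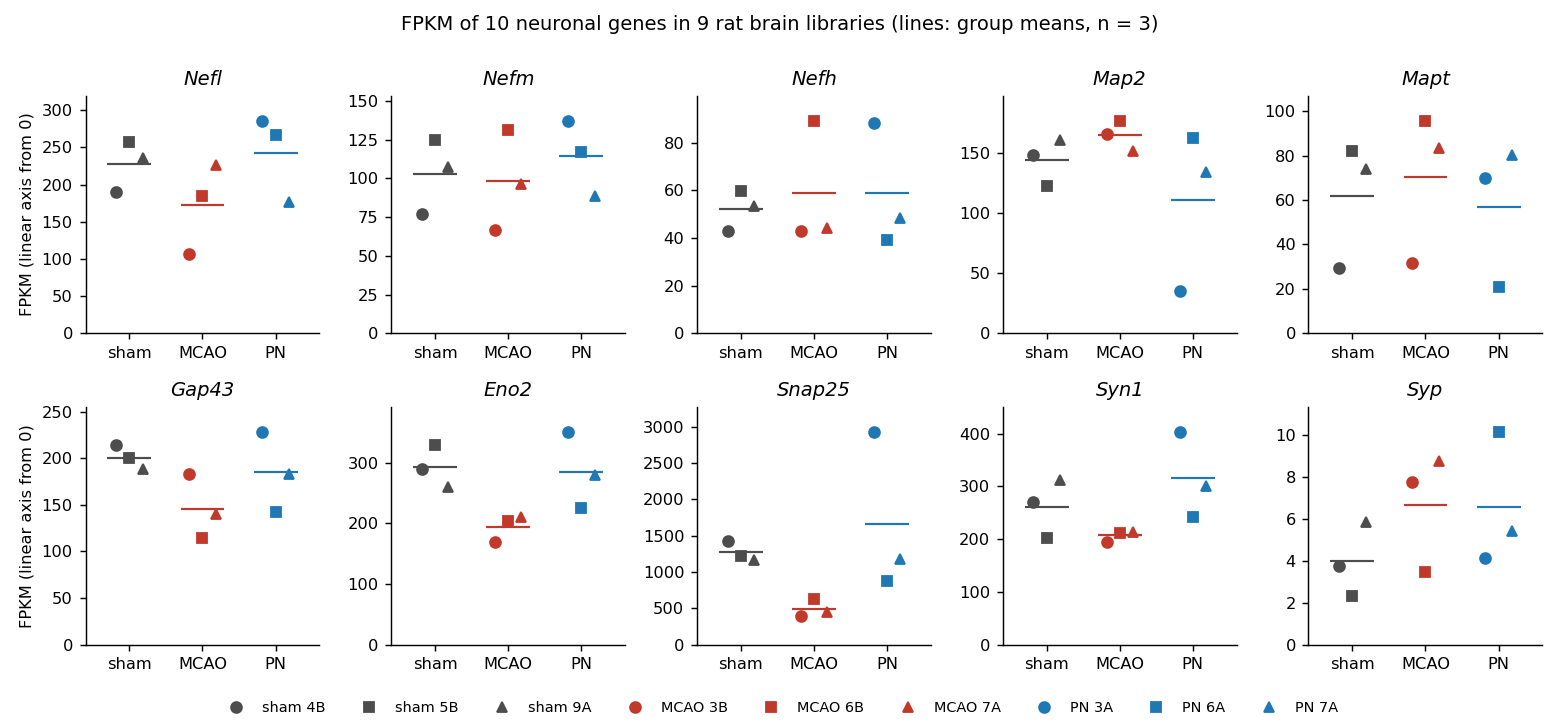
FPKM of each gene (vertical axes, linear from 0, a scale of its own for each gene) in the 9 libraries, by group, with each library marked by its own symbol and the group mean as a line (n = 3). Snap25 and Eno2 are lower in all 3 MCAO libraries than in any other library, while Mapt is split within each group and Map2 is low in PN 3A alone.

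Most of the set was very abundant. On the FPKM scale, which is per transcript length, Snap25 led with a median of 1169 over the 9 libraries, higher than 99.9% of the 15051 genes tested. Eno2 (median 259.6), Syn1 (242), Nefl (226), Gap43 (184) and Map2 (152) followed, and their ranges overlapped. Nefm (107), Mapt (73.9) and Nefh (48.3) came next. Snap25 was above the next gene in the order, Eno2, in all 9 libraries, with no overlap of their ranges. Nefm was above Mapt in 9 of 9 libraries, whereas Eno2 was above Syn1 in only 2 and Mapt above Nefh in 5, so those neighbours had no fixed order.

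Syp did not have the level of the other markers. Its row held 3.74, 2.34 and 5.84 FPKM in the sham libraries 4B, 5B and 9A, 7.74, 3.45 and 8.78 in MCAO 3B, 6B and 7A, and 4.14, 10.1 and 5.42 in PN 3A, 6A and 7A. With a median of 5.42 it was above only 33.4% of the genes tested, although synaptophysin is one of the most abundant proteins of synaptic vesicles and the other 2 presynaptic genes were among the highest of all. The file gives no gene names, so the pairing of this ID with Syp could not be checked, and its values are those of the row ENSRNOG00000010630. The medians of the other 9 genes lay above those of 88.6% to 99.9% of the genes tested, so neuronal transcripts were plentiful in all groups.

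The occlusion was compared with the sham operation first. None of the 10 genes passed at an adjusted p under 0.05 (limma over all genes tested), where 0.00664% of genes (1 of 15051) did, and the lowest adjusted p in the set was 0.348. Of the set, 6 genes had a lower mean log2 level in MCAO and 4 a higher one, with a median difference of -0.20 against -0.01 over all genes tested. At an unadjusted p under 0.05, 2 of the 10 were lower in MCAO (6.25% of all genes) and 0 were higher (4.87% of all genes). In 3 of the 10 every MCAO library lay below every sham library (11.0% of all genes), and in 0 every MCAO library lay above (8.59%). Nothing particular to the list is read from these counts. Without MCAO 3B the median difference was 0.01.

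Snap25 had the largest difference of the set. It was at 1429, 1216 and 1169 FPKM in the sham libraries 4B, 5B and 9A, and at 397, 629.7 and 449 FPKM in MCAO 3B, 6B and 7A. The highest MCAO library was thus far below the lowest sham library. The sham mean was 1272 ± 139 FPKM and the MCAO mean 492 ± 122 FPKM (SD, n = 3). The log2 difference was -1.39 with a standard error of 0.41 and a 95% interval from -2.31 to -0.48, or a level 2.62-fold lower (limma, unadjusted p = 0.00715, adjusted p = 0.348). It stayed between -1.58 and -1.25 when any 1 library was left out.

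Eno2, which encodes the enolase isoform of neurons, went the same way by a smaller step. Its values were 289.6, 330.1 and 259.6 FPKM in the sham libraries 4B, 5B and 9A against 169.7, 204 and 210.1 FPKM in MCAO 3B, 6B and 7A, with no overlap. The log2 difference was -0.59 with a standard error of 0.20 and a 95% interval from -1.04 to -0.14 (limma, unadjusted p = 0.0164, adjusted p = 0.375). Without sham 5B the difference was -0.50 (unadjusted p = 0.0603), which left 1 of the 10 genes, Snap25, at an unadjusted p under 0.05. Without MCAO 3B it was -0.49 (unadjusted p = 0.0613).

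Gap43, a growth cone protein that is raised in regenerating axons, was lower in every MCAO library by a narrow margin. It was at 214, 200.4 and 188 FPKM in the sham libraries 4B, 5B and 9A and at 183.5, 114 and 140.1 FPKM in MCAO 3B, 6B and 7A. MCAO 3B lay just under the lowest sham library. The log2 difference was -0.48 with a standard error of 0.22 (limma, unadjusted p = 0.0586, adjusted p = 0.467). It was -0.66 without MCAO 3B (unadjusted p = 0.0193) and -0.32 without MCAO 6B. Syn1 was tight in MCAO, at 195, 212 and 214 FPKM in 3B, 6B and 7A, and spread in sham, at 269.7, 202 and 312 FPKM in 4B, 5B and 9A. The groups overlapped through sham 5B, and the log2 difference was -0.31 with a 95% interval from -0.83 to 0.20 (limma, adjusted p = 0.626). It was -0.49 without sham 5B and -0.17 without sham 9A.

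The neurofilament genes overlapped between sham and MCAO. Nefl was at 191, 257 and 235 FPKM in the sham libraries 4B, 5B and 9A and at 107, 185 and 226 FPKM in MCAO 3B, 6B and 7A, a log2 difference of -0.45 with a 95% interval from -1.12 to 0.21 (limma, adjusted p = 0.585). The lowest value was that of MCAO 3B, without which the difference was -0.14, and MCAO 7A was within the sham range. Nefm was at 76.8, 125 and 107 FPKM in the sham libraries 4B, 5B and 9A and at 66.5, 131 and 96.7 FPKM in MCAO 3B, 6B and 7A. Nefh was at 42.8, 59.7 and 53.6 FPKM in the sham libraries 4B, 5B and 9A and at 43.1, 89.0 and 44.1 FPKM in MCAO 3B, 6B and 7A. MCAO 6B held the highest Nefh of all libraries, while MCAO 3B and 7A were close to the lowest sham library. The differences of Nefm and Nefh were -0.09 and 0.10, both with intervals inside a 2-fold change in either direction.

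Map2 and Mapt showed no separation of MCAO from sham. Map2 was at 148, 123 and 162 FPKM in the sham libraries 4B, 5B and 9A and at 166, 177 and 152 FPKM in MCAO 3B, 6B and 7A. This is a log2 difference of 0.20 with a 95% interval from -0.86 to 1.26 (limma, adjusted p = 0.891). The fit shares 1 spread over the 3 groups, and Map2 varied most in PN. For Mapt the difference was 0.17 with an interval from -1.18 to 1.53 (limma, adjusted p = 0.936), and for Syp it was 0.60 with an interval from -0.30 to 1.51 (limma, adjusted p = 0.594). The Syp difference was 0.96 without MCAO 6B (unadjusted p = 0.0402), 0.35 without sham 5B and 0.39 without MCAO 7A. That of Map2 was 0.09 without sham 5B. For 4 of the 10 genes the interval lay within 2-fold in either direction, and for 9 within 4-fold, Snap25 being the exception.

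**Figure D2:**
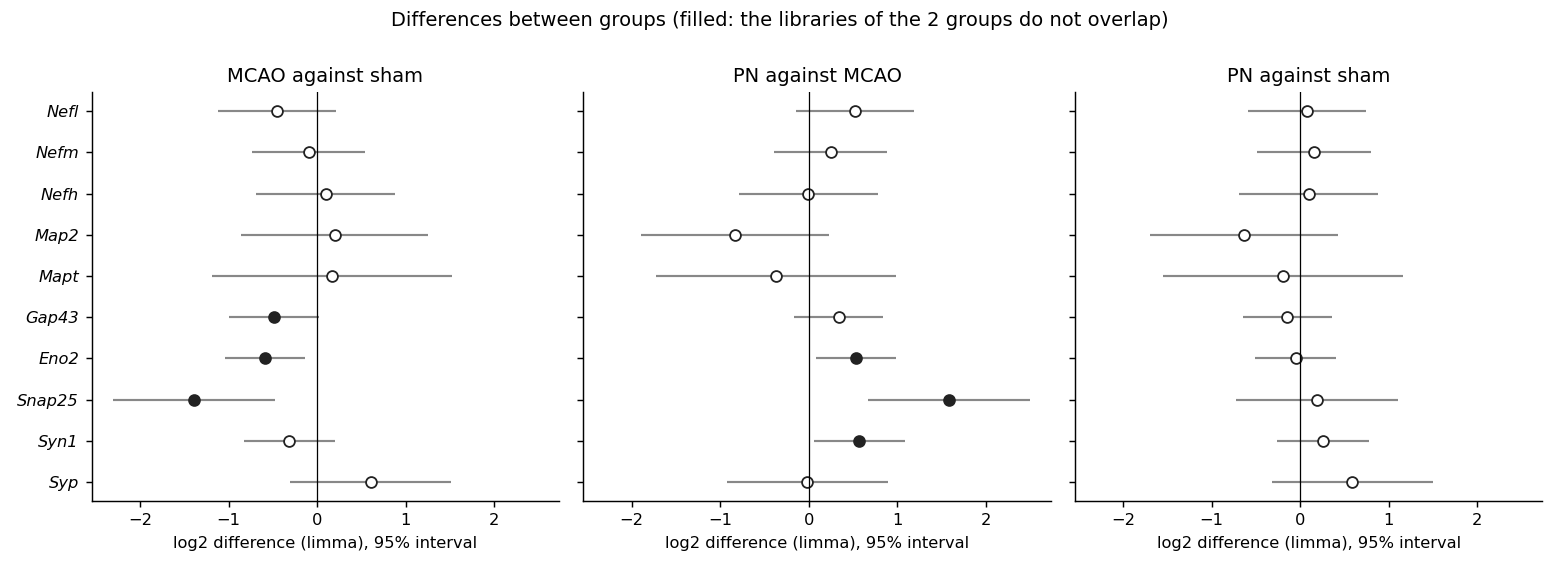
Log2 differences of the 10 genes in the 3 comparisons (horizontal axis, points) with 95% intervals from the limma fit (lines); filled points mark genes whose libraries do not overlap between the 2 groups. Snap25 is at -1.39 for MCAO against sham, at 1.58 for PN against MCAO and at 0.19 for PN against sham.

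PN was then compared with MCAO, which asks what the plant added after the same occlusion. The design text names a control group for PN without saying which group that was. Again none of the 10 passed at an adjusted p under 0.05 (0.00664% of all genes did), and the lowest adjusted p was 0.2095, that of Snap25. In 6 genes the PN libraries had a higher mean log2 level, and in 4 a lower one, with a median difference of 0.295 against 0.07 over all genes. That median was 0.168 without MCAO 3B, 0.199 without PN 3A and 0.172 with quantile normalization. At an unadjusted p under 0.05, 3 of the 10 were higher in PN (8.73% of all genes) and 0 were lower (4.52%). The same 3, Snap25, Eno2 and Syn1, had every PN library above every MCAO library (13.6% of all genes), and 0 had every PN library below (6.69%). Without PN 3A, and likewise without MCAO 3B, 1 of the 10 (Snap25) remained at an unadjusted p under 0.05. This comparison and the one with sham share the MCAO libraries, so a low MCAO value enters both with opposite signs, and the 2 sets of differences are not independent.

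Snap25 was at 2922, 881 and 1171 FPKM in the PN libraries 3A, 6A and 7A, above the 397 to 629.7 FPKM of MCAO. PN 3A was above every other library of the series, PN 6A was between the MCAO and the sham libraries, and PN 7A was just above the lowest sham library. The mean was 1658 ± 1100 FPKM (SD, n = 3), of which PN 3A is the far value. The log2 difference from MCAO was 1.58 with a standard error of 0.41 and a 95% interval from 0.67 to 2.50, or 2.99-fold (limma, unadjusted p = 0.0034, adjusted p = 0.2095). Without PN 3A it was 1.07 (unadjusted p = 0.0031, adjusted p = 0.488), and over all libraries left out in turn it was 1.07 to 1.94. With array weights, which put a weight of 6.19 on PN 7A and 0.345 on PN 3A, Snap25 passed (difference 1.299, adjusted p = 0.0389), and with array weights and PN 7A left out it did not (difference 1.73, adjusted p = 0.6015). Array weights let 377 of all 15051 genes pass, against 1 in the main fit, so the pass is not particular to Snap25.

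Eno2 was at 350.7, 226 and 280.7 FPKM in the PN libraries 3A, 6A and 7A, all above the 169.7 to 210.1 FPKM of MCAO. PN 6A exceeded the highest MCAO library by little. The log2 difference was 0.54 with a standard error of 0.20 and a 95% interval from 0.08 to 0.99 (limma, unadjusted p = 0.0251, adjusted p = 0.332). Without PN 3A it was 0.38 (unadjusted p = 0.081), without MCAO 3B 0.44 (unadjusted p = 0.0876) and without PN 7A 0.54 (unadjusted p = 0.0574). Syn1 was at 402.6, 242 and 300.3 FPKM in the PN libraries 3A, 6A and 7A, again above every MCAO library, whose values were between 195 and 214 FPKM. Its log2 difference was 0.57 with a standard error of 0.23 and a 95% interval from 0.06 to 1.09 (limma, unadjusted p = 0.0333, adjusted p = 0.346). Without PN 3A it was 0.38 (unadjusted p = 0.113), and without MCAO 3B, 6B or 7A or PN 7A it was 0.53 to 0.60 with an unadjusted p of 0.0558 to 0.085.

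The remaining 7 genes overlapped between PN and MCAO. Nefl was at 285, 267 and 176 FPKM in the PN libraries 3A, 6A and 7A, a log2 difference of 0.53 with an interval from -0.14 to 1.19 (limma, adjusted p = 0.471). It was 0.22 without MCAO 3B, 0.75 without MCAO 7A (unadjusted p = 0.0367) and 0.74 without PN 7A (unadjusted p = 0.0436). Nefm, at 137, 117 and 88.6 FPKM in the PN libraries 3A, 6A and 7A, differed by 0.25, and Nefh, at 88.3, 39.3 and 48.3 FPKM, by -0.0039. Gap43 was at 228, 142.8 and 183.6 FPKM in the PN libraries 3A, 6A and 7A, a log2 difference of 0.34 with an interval from -0.17 to 0.85 (limma, adjusted p = 0.533). It was 0.18 without PN 3A or without MCAO 6B, 0.52 without MCAO 3B and 0.51 without PN 6A. In MCAO and in PN, 1 library each (6B and 3A) held far more Nefh than the others of its group, and the spread within both groups exceeded the difference of their means.

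Map2 was low in PN 3A, where Snap25, Syn1 and Eno2 were high. It was at 35.4, 163 and 135 FPKM in the PN libraries 3A, 6A and 7A, where the other 8 libraries of the series held 123 to 177 FPKM. PN 3A thus had the least Map2, at 0.232 times the gene's median, and Syp there was also below its median, at 0.763 times. The log2 difference of PN from MCAO was -0.83 with an interval from -1.89 to 0.23 (limma, adjusted p = 0.472). It was -0.15 without PN 3A (unadjusted p = 0.415) and -1.24 without PN 6A (unadjusted p = 0.024). The spread of Map2 within groups, an SD of 0.696 on the log2 scale, exceeded that of 91.1% of the genes tested.

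Mapt was split within every group. One library of each, sham 4B at 29.2 FPKM, MCAO 3B at 31.8 FPKM and PN 6A at 20.7 FPKM, lay far below the other 6, which were between 69.8 and 95.6 FPKM. No library fell between 31.8 and 69.8 FPKM. Within groups the highest library was 2.80 times the lowest in sham, 3.01 times in MCAO and 3.88 times in PN. The SD within groups, 0.906 on the log2 scale, exceeded that of 96.3% of genes tested, and the difference of PN from MCAO was -0.37 with an interval from -1.72 to 0.99 (limma, adjusted p = 0.822). That interval includes a 2-fold lower level in PN.

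**Figure D3:**
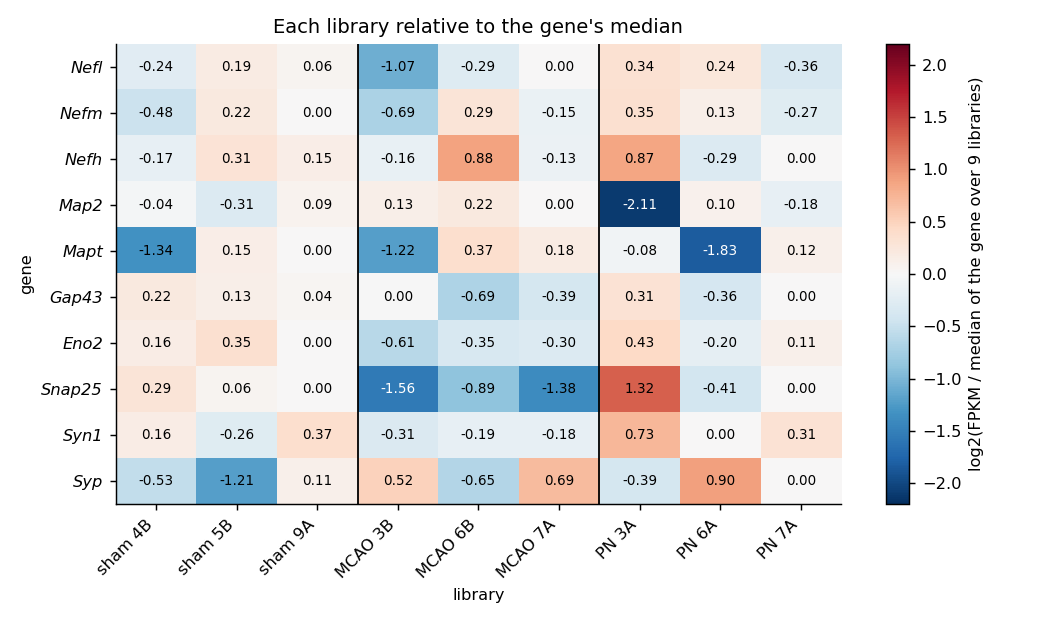
Log2 ratio of each library's FPKM to the gene's median over the 9 libraries (colour and printed value), genes in rows and libraries in columns, groups parted by lines. The low cells of Mapt fall in 1 library of each group (sham 4B, MCAO 3B and PN 6A), the lowest cell is Map2 in PN 3A (-2.11), and Snap25 is at -1.56 to -0.89 in MCAO.

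PN was last compared with sham, which sets treated occlusion against no occlusion. None of the 10 genes passed (limma, lowest adjusted p = 0.974), where 0.0199% of all genes did. At an unadjusted p under 0.05 the count was 0 of 10 (4.25% of all genes), and 0 of 10 had groups without overlap (8.71%). The median difference was 0.08 against 0.04 over all genes, and -0.13 without PN 3A. Snap25 differed by 0.19 with an interval from -0.72 to 1.10, and by -0.32 without PN 3A, so its sign rests on that library. Eno2 differed by -0.05 with an interval from -0.51 to 0.40, Syn1 by 0.26 with one from -0.26 to 0.78, and Gap43 by -0.14 with one from -0.65 to 0.36. The Syn1 difference was 0.07 when PN 3A was left out and 0.09 when sham 5B was, against 0.43 for PN 6A and 0.40 for sham 9A. These 3 intervals, and those of Nefl, Nefm and Nefh, lay within a 2-fold change. Those of Snap25, Mapt and Syp reached past 2-fold higher in PN, and those of Map2 and Mapt past 2-fold lower. Map2 differed by -0.63 (limma, adjusted p = 0.974), by 0.05 without PN 3A and by -1.04 without PN 6A. In that last case it was the 1 gene of the set at an unadjusted p under 0.05 (limma, unadjusted p = 0.0489, adjusted p = 0.869).

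The neurofilament subunits were set against each other within libraries, by ratios of FPKM chosen after the values were seen and given without a test. In sham the ratio of Nefl to Nefh was nearly fixed, at 4.30 to 4.45, and Nefl was 2.06 to 2.48 times Nefm. In MCAO the ratio of Nefl to Nefh was 2.49, 2.08 and 5.12 in 3B, 6B and 7A, and in PN it was 3.23, 6.80 and 3.65 in 3A, 6A and 7A. The occluded groups thus lay on both sides of sham, with an SD of 1.65 in MCAO and 1.95 in PN against 0.0755 in sham (n = 3 each). The ratio of Nefl to Nefm was 1.61, 1.41 and 2.33 in MCAO 3B, 6B and 7A, and 2.08, 2.28 and 1.99 in PN 3A, 6A and 7A. Its SD was 0.214 in sham, 0.484 in MCAO and 0.148 in PN, so this ratio was tightest in PN. Nefm was 1.79 to 2.09 times Nefh in sham, 1.47 to 2.19 times in MCAO and 1.55 to 2.98 times in PN. Nefl and Nefm lie next to each other in the rat genome, with 1 annotated gene and no protein-coding gene between them in GRCr8.

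Snap25 was also low in MCAO relative to Eno2 and to Syn1 of the same library, but not to Nefl in every library. Snap25 was 4.94, 3.68 and 4.50 times Eno2 in sham 4B, 5B and 9A, 2.34, 3.09 and 2.14 times in MCAO 3B, 6B and 7A, and 8.33, 3.90 and 4.17 times in PN 3A, 6A and 7A. Every MCAO library was below every other library. Relative to Syn1 it was 3.75 to 6.02 times in sham, 2.04 to 2.97 times in MCAO and 3.64 to 7.26 times in PN, again with MCAO below all others. Relative to Nefl it was at least 4.73 times in every sham library, 1.99 to 3.71 times in MCAO and 3.30 to 10.2 times in PN, where PN 6A was below MCAO 3B and 6B. Eno2 was 0.831 to 1.63 times Syn1 in sham, 0.871 to 0.982 times in MCAO and 0.871 to 0.935 times in PN, so this ratio varied most in sham. These ratios do not depend on the scaling of a library, since both genes share it. They too were chosen after the values were seen and are given without a test. The Snap25 ratios restate its larger difference between MCAO and sham and are no separate evidence.

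**Figure D4:**
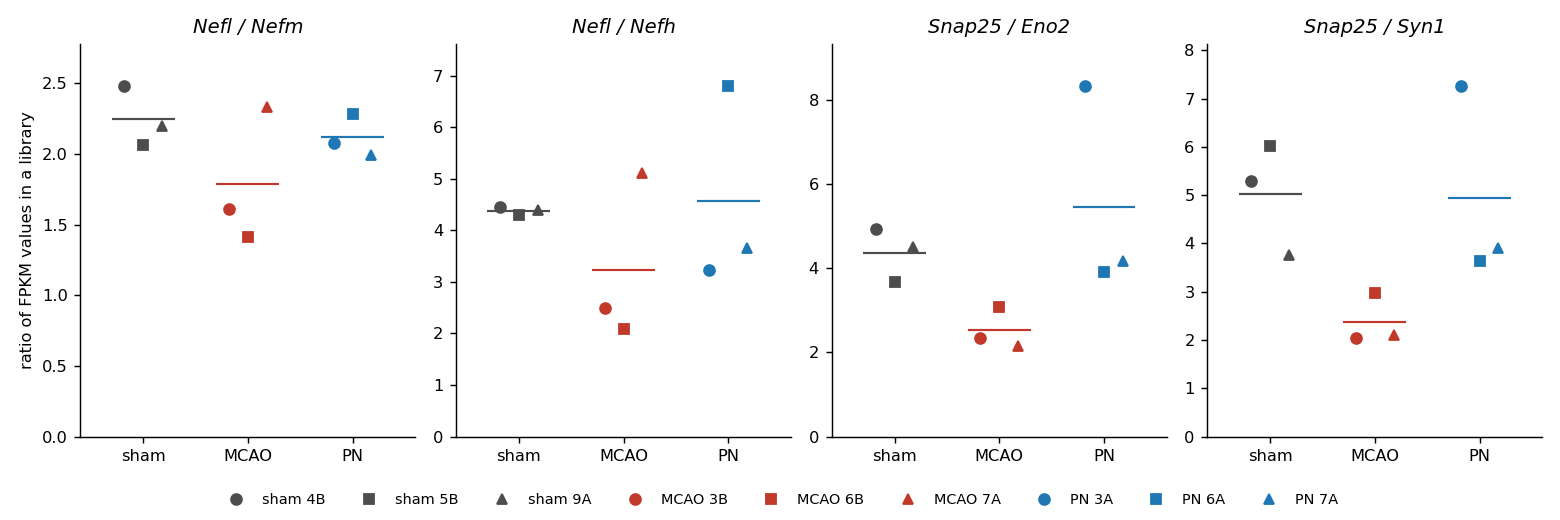
Ratios of FPKM between pairs of genes in each library (vertical axes, linear from 0), by group, with each library marked by its own symbol and the group mean as a line (n = 3). The ratio of Nefl to Nefh is 4.30 to 4.45 in sham and 2.08 to 6.80 in the other groups, and the ratios of Snap25 to Eno2 and to Syn1 are lowest in the 3 MCAO libraries.

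Over the 9 libraries the genes of the set did not move as 1 block. Of the 45 pairs, 26 had a positive correlation of log2(FPKM + 1), and the median r was 0.205. The closest pair was Eno2 and Snap25, with Pearson r = 0.925 (exact permutation p = 0.0004, adjusted over the 45 pairs p = 0.018) and Spearman rho = 0.967 (exact permutation p = 0.000165, adjusted p = 0.00742). Without the 2 libraries farthest from the median of Eno2, r was 0.853, and within groups, over deviations from the group means, it was 0.803. The permutations moved libraries freely between groups, so the p-values of all pairs also reflect differences between group means. The r within groups was not tested. By r this was the only pair of the 45 that passed at an adjusted p under 0.05. By rho 1 more passed, Map2 against Eno2.

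The relation of Map2 to Snap25 and Eno2 was negative. Map2 and Eno2 had r = -0.661 (exact permutation p = 0.0224, adjusted p = 0.202) and rho = -0.917 (exact permutation p = 0.00131, adjusted p = 0.0295), with r = -0.681 without the 2 libraries farthest in Map2 and -0.80 within groups. Map2 and Snap25 had r = -0.746 (exact permutation p = 0.00861, adjusted p = 0.0969) and rho = -0.817 (exact permutation p = 0.0108, adjusted p = 0.0972). That r was -0.479 without the 2 libraries farthest in Map2, 1 of which is PN 3A, and -0.88 within groups. Both within-group values of Map2 rest mainly on PN, where its highest library was 4.61 times its lowest. In sham it was 1.31 times and in MCAO 1.16 times, so they do not show a negative relation inside those groups.

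Among the neurofilament genes, Nefl and Nefm had r = 0.794 (exact permutation p = 0.00716, adjusted p = 0.0969) and rho = 0.70 (exact permutation p = 0.0433, adjusted p = 0.216), with r = 0.825 within groups and 0.507 without the 2 libraries farthest in Nefl. Nefm and Nefh had r = 0.706 (exact permutation p = 0.0346, adjusted p = 0.216) and rho = 0.70 (exact permutation p = 0.0433, adjusted p = 0.216), with r = 0.743 within groups and 0.718 without the 2 libraries farthest in Nefm. Neither pair passed. Nefl was the gene ranked 14 of 15050 by likeness to Nefm, and Nefh was ranked 79. Nefm was ranked 100 by likeness to Nefl. Snap25 was ranked 41 by likeness to Eno2, and Eno2 97 by likeness to Snap25. Snap25 and Syn1 had r = 0.83 (exact permutation p = 0.00545, adjusted p = 0.0969). Syn1 was ranked only 692 by likeness to Snap25, and Snap25 512 by likeness to Syn1. Map2 was ranked 13356 by likeness to Eno2 and 13801 by likeness to Snap25, so it was not the most negative gene for either.

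**Figure D5:**
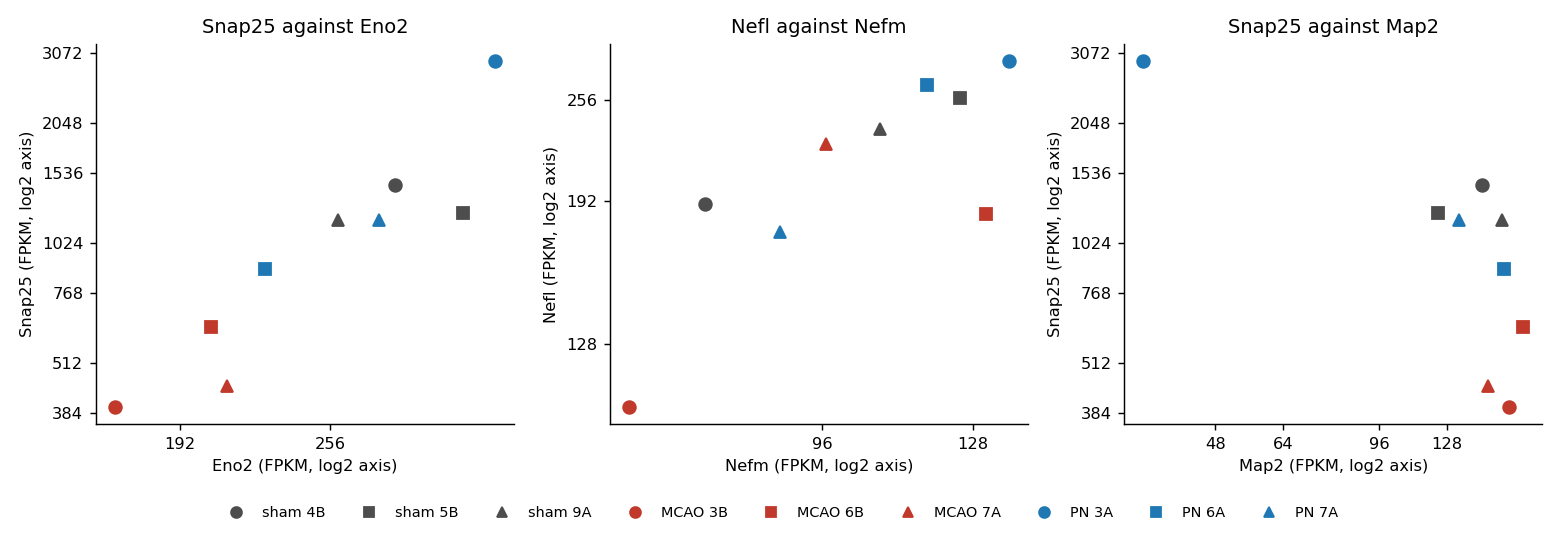
FPKM of Snap25 against Eno2, Nefl against Nefm and Snap25 against Map2 in the 9 libraries (both axes on a log2 scale), coloured by group with 1 symbol a library. Snap25 and Eno2 order the libraries alike (rho = 0.967), and PN 3A has the highest Snap25 and the lowest Map2.

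Genes outside the set whose pattern was most like the mean of the 10 standardized genes are known here by ID only. They were ENSRNOG00000013690 (r = 0.967 over 9 libraries), listed at 2.68 FPKM in MCAO 3B and 4.91 FPKM in PN 3A at its extremes, and ENSRNOG00000024144 (r = 0.966), listed at 49.9 and 89.8 FPKM in the same 2 libraries. A likeness picked as the highest over all genes tested is high by selection.

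Added over the set, the 10 genes took 0.637% to 0.659% of all FPKM in the sham libraries, 0.340% to 0.468% in the MCAO libraries and 0.521% to 1.01% in the PN libraries. Snap25 made up much of this, with 0.290% to 0.345% in sham, 0.0988% to 0.160% in MCAO and 0.218% to 0.656% in PN. The sham libraries were nearly alike in this share and all above MCAO, while PN 6A and 7A were between those 2 groups and PN 3A was above all others. Markers of glia, vessels and blood were not analysed here, so how the cell makeup of the samples moved with these values was not tested.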

How the data were processed

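The authors deposited 1 table of FPKM, per the file headers, with 9 sample columns. StringTie 1.3.1, HISAT2, Bowtie2 2.2.8 and fastp 0.18.0 are named, with no roles, in the submitters' processing notes. No genome build, annotation or strand setting is given in the sources used here. Columns were matched by the code that ends each title, and the 2 columns ending in 7A by the start of their names.

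The 15051 genes that reached 1 FPKM in 3 or more libraries entered 1 limma fit (limma 3.58.1, R 4.3.3) of group means on log2(FPKM + 1) with a mean-variance trend. P-values are two-sided, and adjusted ones follow Benjamini and Hochberg over all of these genes. Alternatives changed 1 choice each (pseudocount, filter, scaling, moderation, weights, covariate or libraries), except that the replicate block was fitted on the 6 MCAO and PN libraries and that array weights were also tried with PN 7A left out. Fold changes on this scale understate those of low genes. The fit was tested on simulated data. Correlations and permutations used Python 3.11.15. The 10 genes, all named, and the lists and alternatives were chosen with earlier results of these data known. A list of 40 further axonal and presynaptic symbols, and lists of cell type markers, were not used here, since the gene table (GRCr8) paired 0 IDs of the file with a symbol.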

Additional observations from a re-analysis of the deposited data

How the results depend on the processing

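Of 10 genes in 3 comparisons, none passed at an adjusted p under 0.05 under any setting tried, with 1 exception: with array weights the count for PN against MCAO was 1 (Snap25). Over all 15051 genes that setting gave 377 for PN against MCAO, against 1 in the main fit. With array weights and PN 7A left out, a setting chosen after seeing the data, the count was 0 in the set and 0 over all genes. The count of genes at an unadjusted p under 0.05 for PN against MCAO, 3 in the analysis reported, was 1 with median of ratios scaling and 1 with the A or B of the codes as a covariate. Every PN code carries A, while MCAO and sham hold both letters. Letter and treatment are thus partly confounded, and their shares cannot be told apart well. The cause was not tested.

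The number in the sample code was tried as a replicate block for PN against MCAO. Deviations of same-numbered libraries from their group means had correlations of 0.064, -0.402 and -0.16 for numbers 3, 6 and 7. With 3 libraries a group these values cannot show whether the numbers pair the samples, and no label says that they do. With the replicate block the count at an unadjusted p under 0.05 was 1 (Snap25, limma, adjusted p = 0.508).

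Small differences changed sign. With array weights, Mapt was -0.0521 for MCAO against sham, Nefm -0.0175 and Mapt 0.187 for PN against MCAO, and Nefl -0.3154, Nefm -0.1904, Nefh -0.1268, Mapt 0.1349 and Snap25 -0.0485 for PN against sham. With array weights and PN 7A left out, Mapt was -0.0516 for MCAO against sham, and Nefh 0.0707 and Syp 0.0909 for PN against MCAO. With the letter covariate, Nefh was 0.1296 for PN against MCAO and Nefl -0.1825 for PN against sham. With quantile normalization Nefl was -0.0079 for PN against sham.

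Leaving out each library in turn gave these ranges, with the library behind each end. For MCAO against sham, the count at an unadjusted p under 0.05 ran from 1 (sham 5B) to 3 (MCAO 6B, which added Syp higher, and PN 3A and PN 6A, which each added Gap43 lower), and from MCAO 6B to MCAO 3B the median ran from -0.3248 to 0.0058, Nefm from -0.3282 to 0.1562 and Nefh from -0.2375 to 0.2772. Mapt ran from -0.2897 (sham 4B) to 0.6589 (MCAO 3B). For PN against MCAO, the count ran from 1 (MCAO 3B, and likewise PN 3A) to 4 (PN 6A, which added Map2 lower), the median from 0.168 (MCAO 3B) to 0.4089 (MCAO 6B), Nefm from -5e-04 (MCAO 3B) to 0.4839 (MCAO 6B), Nefh from -0.3382 (PN 3A) to 0.3338 (MCAO 6B), Mapt from -0.8539 (MCAO 3B) to 0.2357 (PN 6A) and Syp from -0.3691 (MCAO 6B) to 0.2224 (PN 3A). For PN against sham, the count ran from 0 to 1 (PN 6A). From PN 3A to PN 7A the median ran from -0.1345 to 0.2345 and Nefl from -0.0588 to 0.2886. Syp, at 0.59 with all libraries, was 0.33 without sham 5B and 0.27 without PN 6A. From PN 3A to PN 6A, Nefh ran from -0.2379 to 0.3356, Gap43 from -0.3075 to 0.0281, Eno2 from -0.2103 to 0.1048 and Snap25 from -0.3179 to 0.5461. Map2 ran from -1.0398 (PN 6A) to 0.0465 (PN 3A), Nefm from -0.0394 (sham 4B) to 0.3265 (PN 7A) and Mapt from -0.6557 (sham 4B) to 0.4066 (PN 6A). Besides these ends, without PN 3A Nefm was 0.1091 and Mapt -0.6172 for PN against MCAO, and 0.0147 and -0.4463 for PN against sham. Without MCAO 3B, Nefh was -0.1808 and Syp 0.1186 for PN against MCAO. The cause was not tested.

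FPKM keep no read numbers, so the counting error of single values is unknown, and 3 libraries a group limit the precision. At the median standard error over all genes tested (0.26 on the log2 scale), small differences were not detectable.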
